A study of Mus musculus with 4 samples.

Results

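Genes of bone morphogenetic protein (BMP), activin and TGF-beta signalling were followed in mouse skin at embryonic day E16.5, with and without overexpression of the transcription factor Ovol2 in the epidermis. The set held 38 genes, chosen by name as ligands, receptors, antagonists, Smads and targets of these pathways, out of 19938 genes with a probe set of their own on the arrays. Each of the 38 had 1 such probe set, and all 38 passed the filter on dim genes that left 14953 genes for testing.

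The design has 2 arrays of control skin and 2 of Ovol2 BT skin, and each array carries total RNA from 2 mice. P-values therefore measure the spread between these pools. Ovol2 BT embryos carried TRE-Ovol2-Flag, an Ovol2 transgene under a tetracycline-responsive promoter, together with K5-tTA, a transactivator driven by the keratin 5 promoter of basal keratinocytes, so the transgene is driven in the epithelium of the skin. Controls carried TRE-Ovol2-Flag alone or were wild type, and no sample with K5-tTA alone was analysed here. The labels give the strain as CB6F1 for both control arrays and FVB/N for both Ovol2 BT arrays, so strain and genotype cannot be told apart in any value below. They also call the mice littermates, and every array's description names the same pair of genotypes.

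The labels give all mice as female. The Y-linked genes Eif2s3y, Kdm5d and Uty went against this on replicate 1 of both groups. Eif2s3y read 10.13 and 10.40 on the log2 scale on control and Ovol2 BT replicate 1, and 6.17 and 4.72 on control and Ovol2 BT replicate 2. The female marker Xist read 7.07 and 8.36 on control and Ovol2 BT replicate 1. On replicate 2 it read 13.16 in control and 10.80 in Ovol2 BT skin, so these arrays also differed from each other. Ovol2 itself matched the labels, with intensities of 176 and 297 in the controls, then 7799 and 7949 in Ovol2 BT skin (log2 fold 5.01, SE 0.27, limma adjusted p = 0.0253). Ovol2 BT replicate 2 was unlike the rest. On it 893 of the 14953 genes (5.97%) were over 2-fold lower than the mean of the remaining 3 and 78 (0.522%) were over 2-fold higher. The same counts on Ovol2 BT replicate 1 were 33 and 53. Keratinocyte and dermal fibroblast markers were bright on all arrays, as the tissue label asks. Of 14 short lists of cell type markers, the summed intensity was higher on both Ovol2 BT arrays than on both controls for 2 (myeloid, cartilage and bone), lower for 4 (basal keratinocyte, suprabasal keratinocyte, hair placode and follicle epithelium, melanocyte) and overlapping for 8. Among those 8, the erythroid sum, from 2 of 5 markers, was 13045 on Ovol2 BT replicate 2 against 3160 to 6485 on the other arrays. The skeletal muscle sum was 27703 there against 14788 to 24032. The dermal fibroblast sum, at 46355, lay within the range of the other arrays (45378 to 47363). Its markers went both ways there, with Lum at 3618 against 5384 to 6319 and Twist2 at 8163 against 6643 to 7174. The part of these lists in that array's values was not tested.

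BMPs, activins and TGF-betas are secreted dimers that bring together type I and type II serine kinase receptors. The type I receptor then phosphorylates Smad1 and Smad5 (mainly for BMPs) or Smad2 and Smad3 (mainly for activins and TGF-betas), which enter the nucleus with Smad4. Secreted antagonists such as noggin and follistatin hold ligands away from receptors, and inhibitory Smads and the Id genes are induced as part of the response. In embryonic skin BMPs restrain hair placode formation and promote follicle differentiation, while TGF-beta restrains keratinocyte growth.

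The clearest differences were in a ligand and an antagonist: Bmp2 and Sostdc1 read higher on both Ovol2 BT arrays than on both controls, and they did so by about the same amount on each. No pathway gene passed the threshold over all genes. Tgfbr1, Bmpr1a, Inhba and Acvr2a had large negative mean folds that came mostly from Ovol2 BT replicate 2. The Smads and the Id genes had mean log2 folds between -0.32 (Smad5) and 0.07 (Smad6). For Id1, Id2 and Id3 the 2 Ovol2 BT arrays lay on opposite sides of the controls, with Id2 in the reverse order of Id1 and Id3.

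Folds here are Ovol2 BT minus control means of log2(intensity + 16), tested with limma over all 14953 genes, and "changed" means a Benjamini-Hochberg adjusted p under 0.05. None of the 38 genes changed, against 0.0268% of all genes (4 of 14953, with 0.0201% higher and 0.00669% lower). At an unadjusted p under 0.05, 2 of the 38 were higher and 0 lower, that is 5.26% against 4.23% of all genes (2.49% higher and 1.74% lower). Both Ovol2 BT arrays lay on the same side of both controls for 9 of the 38 (23.7%, 3 higher and 6 lower), against 34.2% of all genes (20.1% higher and 14.1% lower). A fold of at least 0.5 in size was found for 8 of the 38 (21.1%, 2 higher and 6 lower), against 9.43% of all genes (2.29% higher and 7.14% lower). The median fold was 0.0063 over the 38 genes, with 19 positive and 19 negative, and 0.026 over all genes tested. For 7 of the 38 genes the fold was larger than the gap between the arrays of either group, which is 18.4% against 20.2% of all genes.

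**Figure D1:**
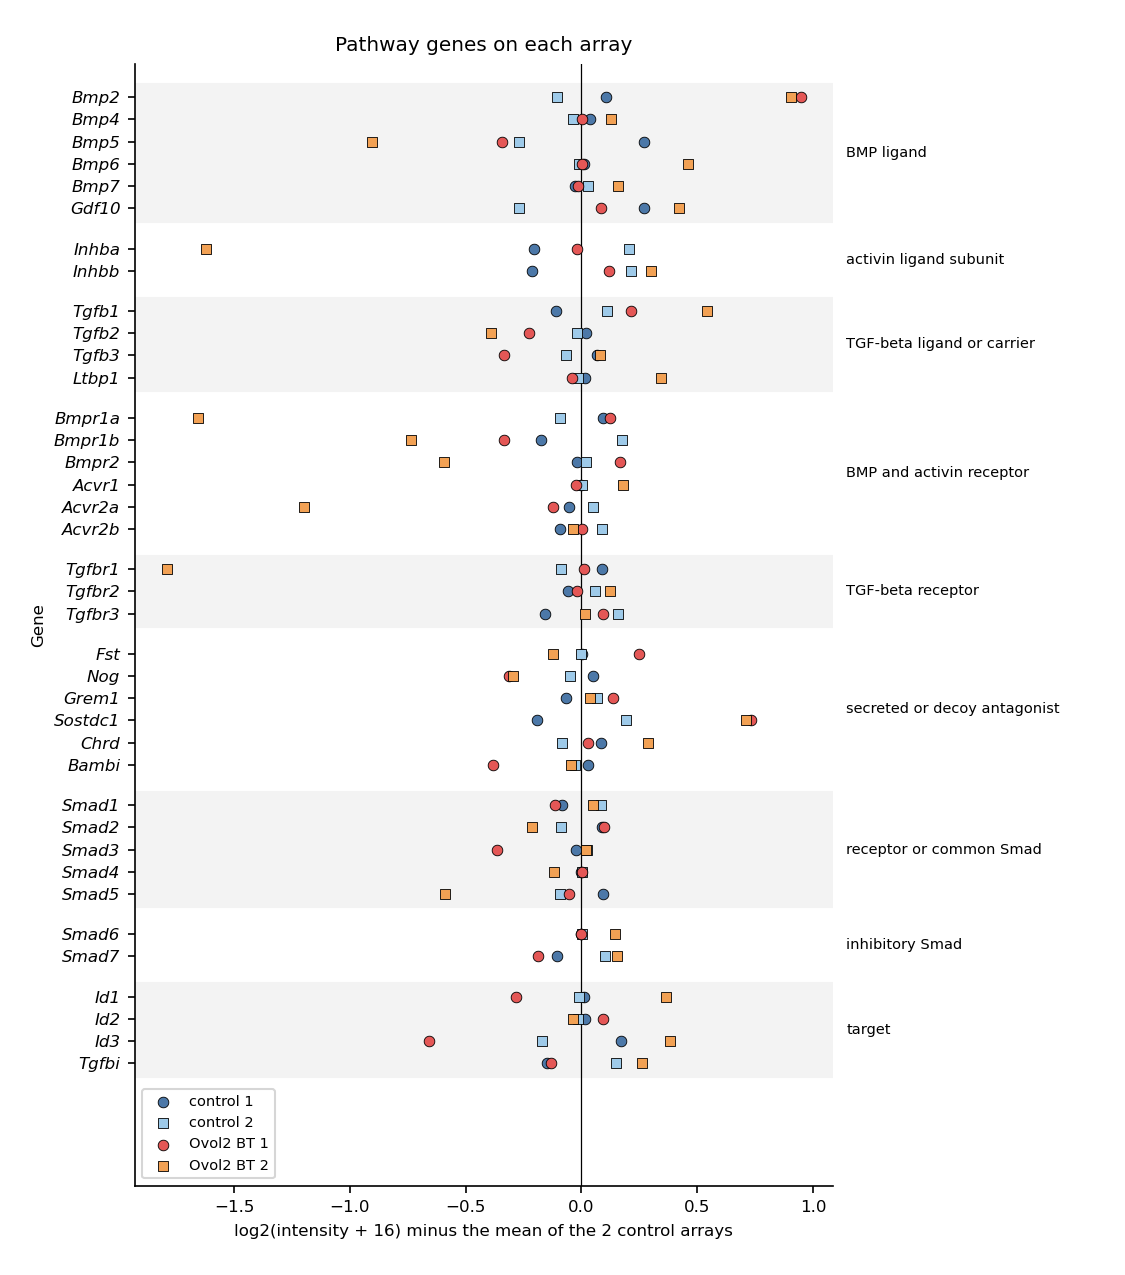
Level of each of the 38 genes on each of the 4 arrays, as log2(intensity + 16) minus the mean of the 2 control arrays, grouped by role; blue marks are control arrays and red and orange marks are Ovol2 BT arrays 1 and 2. Bmp2 and Sostdc1 lie to the right on both Ovol2 BT arrays, whereas Tgfbr1, Bmpr1a, Inhba and Acvr2a lie far to the left on Ovol2 BT replicate 2 and near the controls on replicate 1.

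Among the BMP ligands, Bmp2, which is made in hair placode epithelium, had intensities of 994 and 857 in the controls, and 1795 and 1741 in Ovol2 BT skin. Both Ovol2 BT arrays were above both controls, and the gap between the groups was larger than that within either. Its log2 fold was 0.93 (SE 0.18, 95% interval 0.47 to 1.38, n = 2 arrays per group), a ratio of 1.90, with a limma adjusted p of 0.564. The fold stayed between 0.82 and 1.03 when any single array was left out. Without Ovol2 BT replicate 1 it was 0.90, in a fit that rests on Ovol2 BT replicate 2 alone. The summed levels of markers of hair placode and follicle epithelium and of basal keratinocytes were lower, though not those of each marker. The summed intensity of 5 of 5 placode markers was 5182 and 5449 in the controls, and 4467 and 5045 in Ovol2 BT skin, with none at 0. Shh, Edar and Lhx2 read lower on both Ovol2 BT arrays, whereas Sox9 (log2 fold 0.56) and Foxe1 (0.08) read higher on both. That of 6 of 6 basal keratinocyte markers was 37335 and 38730 in the controls, and 23422 and 24426 in Ovol2 BT skin, with none at 0. Krt5 (log2 fold -0.87), Krt14 (-0.66) and Krt15 (-1.41) read lower on both Ovol2 BT arrays, while Itga6 (-0.09), Trp63 (-0.21) and Col17a1 (-0.05) overlapped between the groups. Their part in the Bmp2 value was not tested. In whole skin, fewer cells of a type and less RNA per cell cannot be told apart.

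Bmp5, a BMP of skeletal and ear development, read 329 and 221 in the controls, and 209 and 137 in Ovol2 BT skin. Both Ovol2 BT arrays were lower, but the replicates differed among themselves by nearly as much as the groups. The log2 fold was -0.63 (SE 0.28, limma adjusted p = 0.906). It was -0.35 without Ovol2 BT replicate 2 and -0.91 without Ovol2 BT replicate 1. Without control replicate 1 it was -0.36.

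The other BMP ligands overlapped between the groups. Bmp4, the main BMP of the dermis below the placode, read 3314 and 3142 in the controls, and 3233 and 3527 in Ovol2 BT skin, a log2 fold of 0.07 (SE 0.13). Bmp7 had a log2 fold of 0.07 (SE 0.13) and Bmp6, a BMP of suprabasal epidermis, 0.23 (SE 0.22). The value of Bmp6 came from Ovol2 BT replicate 2, at 637 against 455 to 462 on the other 3 arrays. Gdf10, a divergent member of the family, read 1242 and 849 in the controls, and 1090 and 1383 in Ovol2 BT skin. It had a log2 fold of 0.25 (SE 0.26). Of these 6 BMP ligands, Bmp2 was the one with an unadjusted limma p under 0.05 (two-sided, 0.00306).

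The activin subunits gave no uniform pattern. Inhba, the subunit of activin A, read 461 and 617 in the controls, 527 on Ovol2 BT replicate 1 and 163 on Ovol2 BT replicate 2. Only the last array was low, so the log2 fold of -0.82 (SE 0.53, limma adjusted p = 0.906) was -0.019 without it. Without Ovol2 BT replicate 1 it was -1.62. Inhbb, the subunit of activin B, had a log2 fold of 0.21 (SE 0.22) and was lowest on control replicate 1, at 337 against 429 to 488 on the other arrays; without that array its fold was -0.0009.

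Of the TGF-beta ligands, Tgfb1 read higher and Tgfb2 lower in Ovol2 BT skin. Tgfb1 read 1638 and 1911 in the controls, and 2052 and 2586 in Ovol2 BT skin. Both Ovol2 BT arrays were higher, and the log2 fold was 0.38 (SE 0.19, limma adjusted p = 0.906). It was 0.21 without Ovol2 BT replicate 2 and 0.54 without Ovol2 BT replicate 1. The myeloid marker sum was higher too. The summed intensity of 5 of 5 markers was 4496 and 4394 in the controls, and 5471 and 6747 in Ovol2 BT skin, with none at 0. Csf1r, Lyz2, Cd68 and Adgre1 read higher on both Ovol2 BT arrays, whereas Ptprc overlapped between the groups (log2 fold -0.35). The part of this list in the Tgfb1 value was not tested. Tgfb2 read 1020 and 995 in the controls, and 858 and 764 in Ovol2 BT skin, both lower, with a log2 fold of -0.31 (SE 0.19, limma adjusted p = 0.906). Tgfb3 (log2 fold -0.13, SE 0.20) and Ltbp1, which ties latent TGF-beta to the matrix (0.15, SE 0.21), overlapped between the groups.

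**Figure D2:**
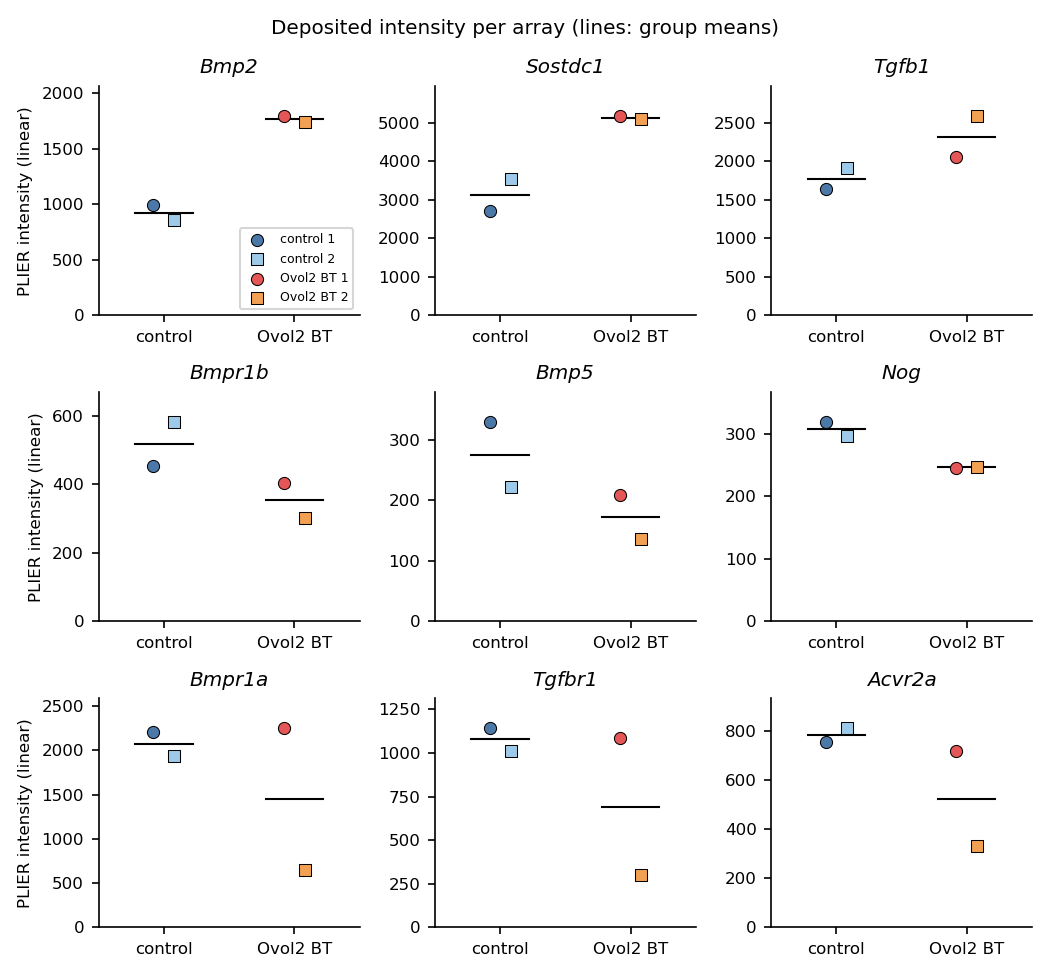
Deposited linear intensity of 9 genes on each array, with a horizontal line at each group's mean and every axis starting at 0. In the top row Bmp2, Sostdc1 and Tgfb1 are higher on both Ovol2 BT arrays; in the middle row Bmpr1b, Bmp5 and Nog are lower on both; in the bottom row Bmpr1a, Tgfbr1 and Acvr2a are low on Ovol2 BT replicate 2, at 643, 299 and 331.

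Tgfbr1, Bmpr1a and Acvr2a had 3 of the 4 largest negative folds of the 38 genes, beside Inhba. Of the 6 BMP and activin receptors, 5 had negative folds and the median was -0.37. Over all genes 6813 of 14953 folds were negative and the median was 0.026. Among the 5, Acvr2b was near 0 (-0.017), and Bmpr1a and Bmpr2 turned positive without Ovol2 BT replicate 2. The receptor median against the control mean was -0.011 on Ovol2 BT replicate 1 and -0.66 on Ovol2 BT replicate 2. The same medians over all genes were -0.0046 and 0.076. The promoters of Bmpr1a and Tgfbr1, the genes of a BMP and of the TGF-beta type I receptor, are shown as windows that hold GGCGCC. Smad1 and Smad5 are known to bind this GC-rich motif. The windows of Inhba and Acvr2a, also low on Ovol2 BT replicate 2, do not hold it. Of the other genes that hold it, Gdf10, Chrd, Tgfbi and Grem1 read above the control mean on that array. Bmpr2, Smad5 and Id2 read below it. A link between the motif and the level was not tested. The stretches shown run from base -250 to -1 before the start in RefSeq's GRCm38.p6 table, with the motif in capitals. They lie at chr14:34502547-34502796 on the minus strand for Bmpr1a and at chr4:47352972-47353221 on the plus strand for Tgfbr1.
Bmpr1a: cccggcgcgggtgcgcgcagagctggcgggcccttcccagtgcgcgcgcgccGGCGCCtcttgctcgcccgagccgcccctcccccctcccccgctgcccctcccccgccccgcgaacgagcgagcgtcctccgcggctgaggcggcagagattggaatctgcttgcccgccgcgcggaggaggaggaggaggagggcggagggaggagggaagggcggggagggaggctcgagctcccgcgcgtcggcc
Tgfbr1: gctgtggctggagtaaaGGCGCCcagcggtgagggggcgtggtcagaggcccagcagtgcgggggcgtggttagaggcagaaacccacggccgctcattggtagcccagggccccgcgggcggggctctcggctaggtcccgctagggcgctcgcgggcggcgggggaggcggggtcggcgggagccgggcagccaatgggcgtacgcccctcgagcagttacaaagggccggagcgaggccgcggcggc

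Bmpr1a, the type I BMP receptor needed for hair follicle differentiation, read 2203 and 1933 in the controls, 2252 on Ovol2 BT replicate 1 and 643 on Ovol2 BT replicate 2. Replicate 1 was thus above both controls and replicate 2 far below them. The log2 fold was -0.77 (SE 0.57, 95% interval -2.19 to 0.66, limma adjusted p = 0.906). It turned to 0.13 without Ovol2 BT replicate 2 and was -1.66 without Ovol2 BT replicate 1. Tgfbr1, the type I TGF-beta receptor, gave the same picture, at 1143 and 1011 in the controls, 1084 on Ovol2 BT replicate 1 and 299 on Ovol2 BT replicate 2. Its log2 fold of -0.89 (SE 0.58, limma adjusted p = 0.906) turned to 0.012 without Ovol2 BT replicate 2. It was -1.79 without Ovol2 BT replicate 1.

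Acvr2a, a type II receptor for activins and some BMPs, read 754 and 811 in the controls, 716 on Ovol2 BT replicate 1 and 331 on Ovol2 BT replicate 2. Both Ovol2 BT arrays were below both controls, replicate 1 only slightly. The log2 fold was -0.66 (SE 0.37, limma adjusted p = 0.906), -0.12 without Ovol2 BT replicate 2 and -1.20 without Ovol2 BT replicate 1. Bmpr2, the type II BMP receptor, was highest on Ovol2 BT replicate 1, at 4384, and lowest on replicate 2, at 2582 (log2 fold -0.21, SE 0.26). Its fold was 0.17 without Ovol2 BT replicate 2 and -0.59 without Ovol2 BT replicate 1.

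Bmpr1b read below both controls on both Ovol2 BT arrays, and the difference of its group means was larger than the gap between the arrays of either group. This second type I BMP receptor read 453 and 581 in the controls, and 404 and 302 in Ovol2 BT skin. Its log2 fold was -0.53 (SE 0.23, 95% interval -1.12 to 0.05, limma adjusted p = 0.906), with values between -0.74 and -0.33 when single arrays were left out. The lowest came without Ovol2 BT replicate 1. The other receptors had small folds: Acvr1 at 0.08 (SE 0.19), Acvr2b at -0.017 (SE 0.16, of the other sign with quantile normalisation and with median centring), the type II TGF-beta receptor Tgfbr2 at 0.05 (SE 0.16) and the co-receptor Tgfbr3 at 0.05 (SE 0.16) on the log2 scale. For Tgfbr2 the intensities were 1913 and 2074 in the controls, and 1966 and 2169 in Ovol2 BT skin.

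In all, 4 of the 38 genes (10.5%) were over 2-fold lower on Ovol2 BT replicate 2 than the mean of the remaining 3, which compares with 5.97% of all genes. They were Tgfbr1 (-1.80 on the log2 scale), Bmpr1a (-1.70), Inhba (-1.62) and Acvr2a (-1.16), and none was over 2-fold higher there. Without Ovol2 BT replicate 2, none of the 38 genes changed, against 0.716% of all genes, and none did without control replicate 1 (0.0468% of all genes) or control replicate 2 (0.0268%). Without Ovol2 BT replicate 1, 11 of the 38 (28.9%, 3 higher and 8 lower) did, against 16.4% of all genes (2453). Each of these fits leaves a lone array in its group and takes it to vary as the other group does. Without Ovol2 BT replicate 1 the lone array is replicate 2, the one unlike the rest.

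**Figure D3:**
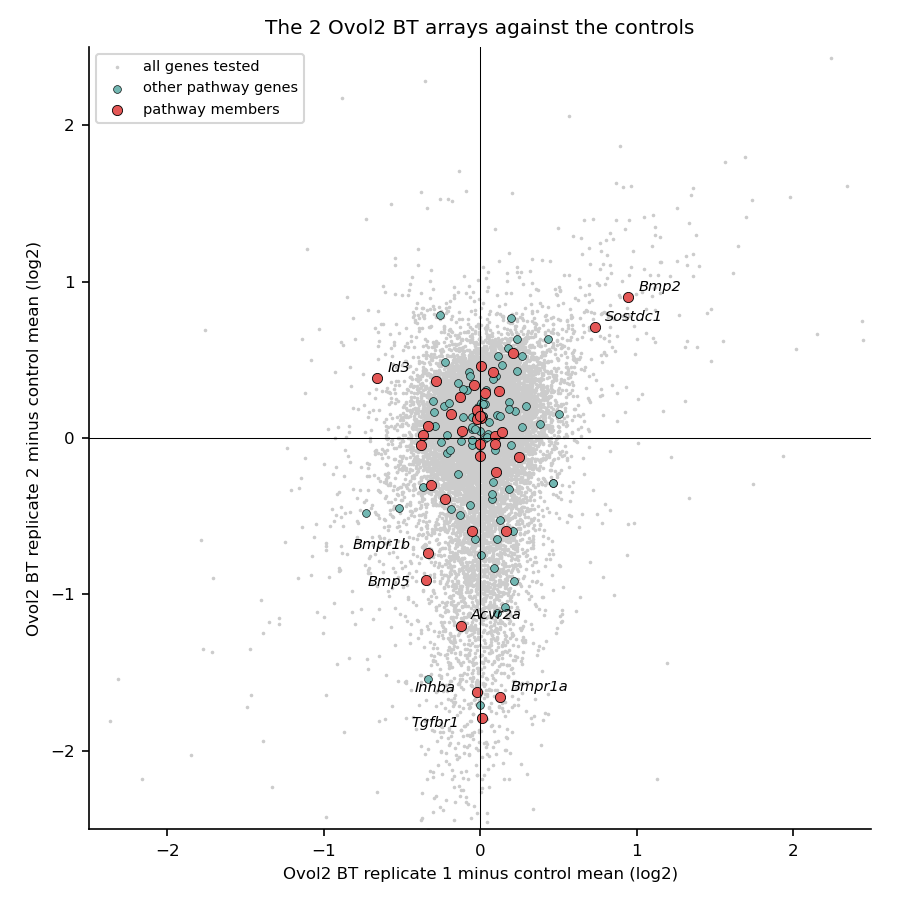
Difference of Ovol2 BT replicate 1 (horizontal) and replicate 2 (vertical) from the control mean on the log2 scale, for the 38 genes (red), the other pathway genes (teal) and all genes tested (grey); 22 genes lie outside the range drawn. Bmp2 and Sostdc1 are higher on both arrays, while Tgfbr1, Bmpr1a, Inhba and Acvr2a lie far below the control mean on replicate 2 and near it on replicate 1.

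Among the antagonists, Sostdc1 was higher and Nog lower. Sostdc1, also called ectodin or Wise, is a secreted inhibitor of BMP and Wnt signals that limits placodes. It read 2720 and 3551 in the controls, and 5181 and 5097 in Ovol2 BT skin, so the Ovol2 BT arrays agreed closely and lay above both controls. The log2 fold was 0.72 (SE 0.16, 95% interval 0.32 to 1.12), a ratio of 1.65, with a limma adjusted p of 0.669. It ranged from 0.53 without control replicate 1 to 0.91 without control replicate 2, and was 0.71 without Ovol2 BT replicate 1.

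Nog encodes noggin, which binds BMPs and is needed for hair follicle induction. It read 319 and 297 in the controls, and 245 and 247 in Ovol2 BT skin. Both Ovol2 BT arrays were lower, and the log2 fold of -0.30 (SE 0.16, limma adjusted p = 0.906) lay between -0.35 and -0.26 with any single array left out. Besides the epithelial lists given with Bmp2, the suprabasal keratinocyte sum was lower, with 4 of 5 markers measured and a summed intensity of 55887 and 53580 in the controls against 53385 and 49772 in Ovol2 BT skin. So was the melanocyte sum (5 of 5 markers, 4712 and 5560 against 4241 and 4213), with no marker at 0 in either. Neither list was lower for each marker. Krt1 (log2 fold -0.08) and Krt10 (-0.08) read lower on both Ovol2 BT arrays, while Ivl (-0.46) and Lor (0.02) overlapped between the groups. Tyr (-0.82) and Dct (-0.34) read lower on both, while Tyrp1 (0.06), Pmel (-0.19) and Mitf (-0.45) overlapped. The cartilage and bone sum was higher (3 of 5 markers, 2355 and 2669 against 3305 and 3500, none at 0). Most of that difference was Sox9, which is also on the placode list (1449 and 1630 against 2219 and 2332). Col2a1 read 784 and 924 against 976 and 1035, and Acan was under the filter and overlapped. The part of these lists in the values of Bmp5, Tgfb2, Bmpr1b, Nog and Sostdc1 was not tested. Bambi, a receptor decoy without a kinase, read 1122 and 1077 in the controls, and 840 and 1066 in Ovol2 BT skin; the second Ovol2 BT array lay just below the controls (log2 fold -0.21, SE 0.21). Fst, the activin binder follistatin (0.06, SE 0.20), Grem1 (0.09, SE 0.15) and Chrd (0.16, SE 0.19), a pair of further BMP binders, overlapped between the groups on the log2 scale.

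**Figure D4:**
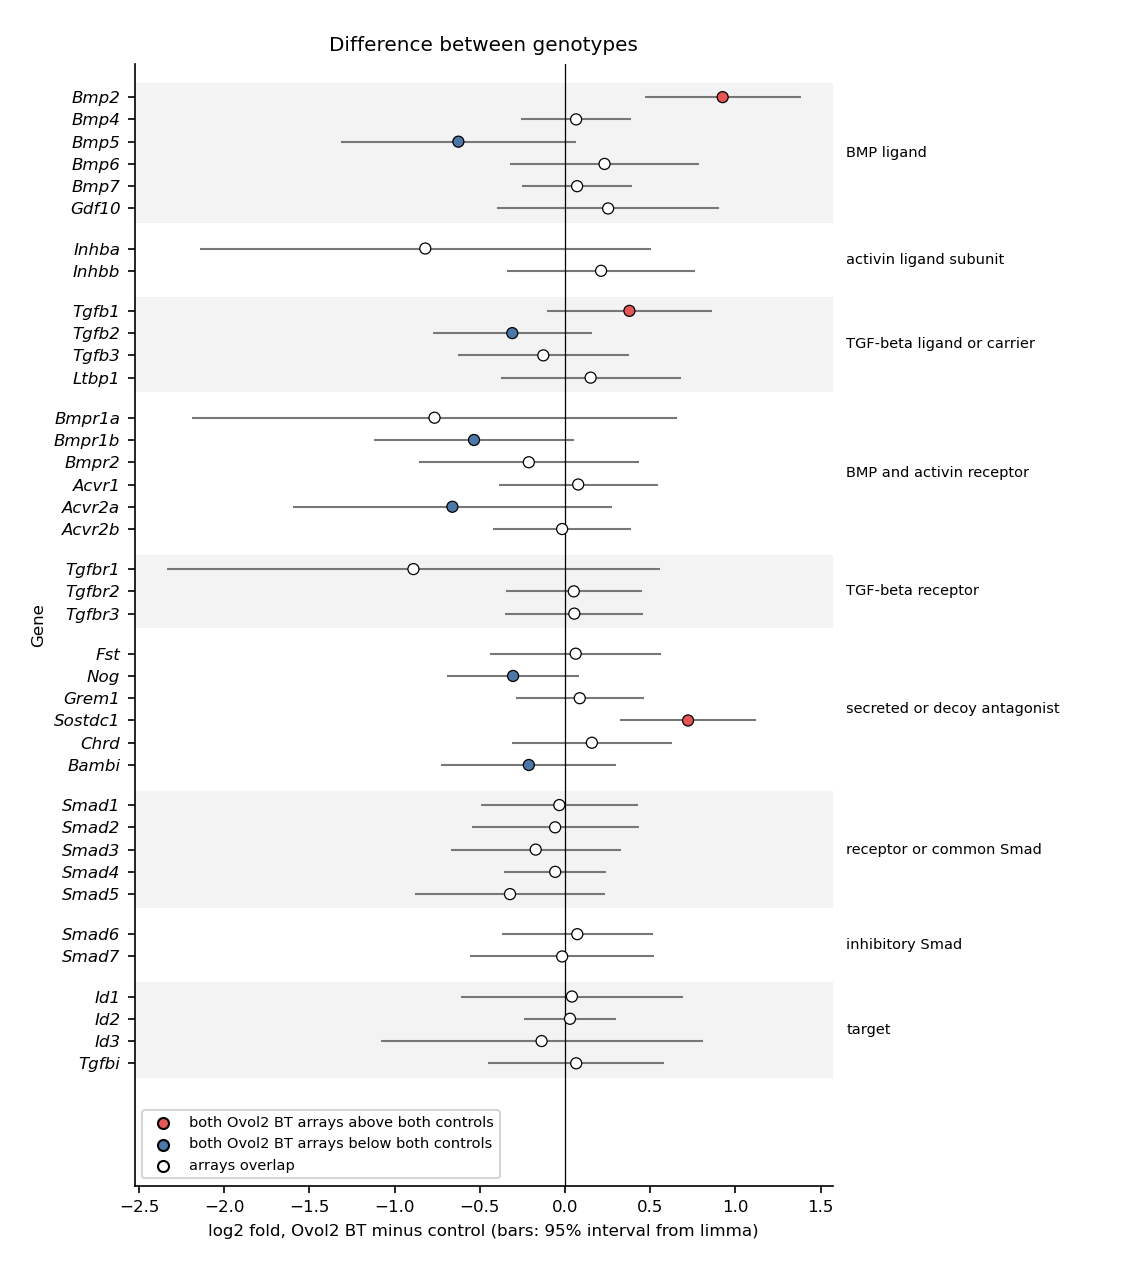
Log2 fold of each of the 38 genes, Ovol2 BT minus control, with the 95% interval from limma, which is for 1 gene at a time; red and blue points mark genes whose 2 Ovol2 BT arrays both lay above or both below the controls. The intervals of Bmp2 and Sostdc1 lie above 0, and those of Tgfbr1, Bmpr1a and Inhba are the widest.

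The receptor and common Smads, which carry the signal to the nucleus, had negative log2 folds in all 5 cases with all 4 arrays, none with an interval that left out 0. Smad4 read 3811 and 3817 in the controls, and 3819 and 3515 in Ovol2 BT skin (log2 fold -0.06, SE 0.12), and its fold was 0.0021 without Ovol2 BT replicate 2. The folds were -0.03 (SE 0.18) for Smad1, -0.06 (SE 0.20) for Smad2, -0.17 (SE 0.20) for Smad3 and -0.32 (SE 0.22) for Smad5. Smad5 was lowest on Ovol2 BT replicate 2, at 1745 against 2472 to 2814 on the other arrays. Without that array its fold was -0.05, and without Ovol2 BT replicate 1 it was -0.59. Smad3 was lowest on Ovol2 BT replicate 1, at 1331 against 1690 to 1744 on the others.

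The inhibitory Smads serve as feedback brakes and are themselves induced by the pathway. Smad6 read 444 and 446 in the controls, and 445 and 494 in Ovol2 BT skin (log2 fold 0.07, SE 0.18). Smad7 read 550 and 637 in the controls, and 518 and 660 in Ovol2 BT skin (log2 fold -0.017, SE 0.21), and its sign turned with quantile normalisation and with median centring. The start of Smad6 is shown because it holds GTCTAGAC, the palindrome that Smad3 and Smad4 are known to bind, in capitals. The stretch runs from base -60 to 10 around the start, at chr9:64022050-64022119 on the minus strand in RefSeq's GRCm38.p6 table, and the motif lies from -4 to 4.
Smad6: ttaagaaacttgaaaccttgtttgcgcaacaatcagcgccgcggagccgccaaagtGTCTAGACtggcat

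The Id genes encode helix-loop-helix proteins that block other transcription factors, and they are the classic direct targets of BMP signals. Id2 is shown as the Id gene whose window holds GGCGCC (capitals), from base -250 to -1, at chr12:25096093-25096342 on the minus strand in the same table.
Id2: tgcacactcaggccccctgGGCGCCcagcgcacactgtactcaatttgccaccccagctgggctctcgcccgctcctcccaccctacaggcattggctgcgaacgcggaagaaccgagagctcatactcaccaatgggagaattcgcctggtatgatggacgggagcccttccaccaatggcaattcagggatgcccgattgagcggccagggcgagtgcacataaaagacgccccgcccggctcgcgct

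Id2 had the smallest error of the 4 targets. It read 4644 and 4559 in the controls, and 4917 and 4486 in Ovol2 BT skin, a log2 fold of 0.03 (SE 0.11, 95% interval -0.24 to 0.30). Id2 was above both controls on Ovol2 BT replicate 1 and below both on replicate 2. Id1, Id2 and Id3 each differed more between the Ovol2 BT arrays than between the groups. Id1 read 1327 and 1305 in the controls, 1077 on Ovol2 BT replicate 1 and 1700 on Ovol2 BT replicate 2, a log2 fold of 0.04 (SE 0.26, 95% interval -0.61 to 0.69). Id3 read 1195 and 938 in the controls, 665 on Ovol2 BT replicate 1 and 1388 on Ovol2 BT replicate 2, a log2 fold of -0.14 (SE 0.38, 95% interval -1.08 to 0.81). For Id1 and Id3 replicate 1 was below and replicate 2 above both controls, the reverse of Id2. Tgfbi, a matrix protein induced by TGF-beta, had a log2 fold of 0.07 (SE 0.21). The interval of Id3 was wide enough to hold a shift of the size found for Sostdc1.

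Promoter windows of 300 bases, from 250 before to 50 after the start, were in the RefSeq table for 26 of the 38 genes, with 32 windows. There was none here for Bmp2, Bmp7, Tgfb3, Tgfbr3, Fst, Nog, Sostdc1, Bambi, Smad2, Smad4, Smad7 and Id1. The motifs were searched on both strands and do not overlap each other. GGCGCC was found in 10 of the 32 windows (31.2%), of 9 genes, against 11.9% of all 32851 windows in the table. The Smad5 windows that hold it overlap and share the same site, so that site is counted more than once. The 9 genes were Bmpr1a, Bmpr2, Chrd, Gdf10, Grem1, Id2, Smad5, Tgfbi and Tgfbr1, whose folds went both ways, and the base composition of the windows was not matched. GTCTAGAC was found in 1 window (3.12%), that of Smad6, against 0.213% of all windows. CCGTTA, the core of sites bound by the Ovo family, was in 0 of the 32 windows, against 2.76% of all windows. With 32 windows, 0 cannot be told apart from that share, and Bmp2 and Sostdc1 had no window. A match describes the letters of a window and is no evidence of binding.

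A wider list of 102 other pathway genes had 97 genes with a probe set of their own and 85 that passed the filter on dim genes. None of the 85 changed, against 0.0268% of all genes; without Ovol2 BT replicate 1, 13 did (15.3%, 3 higher and 10 lower), against 16.4%. Their median log2 fold was 0.023, with 51 positive and 34 negative, beside 0.026 over all genes. Groups did not overlap for 25 of the 85 (29.4%, 17 higher and 8 lower), against 34.2% of all genes. At an unadjusted p under 0.05 there were 2 of the 85 (2.35%, 1 higher and 1 lower), against 4.23%.

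The higher one was Lrrc32, also called GARP, which holds latent TGF-beta at the cell surface. It read 779 and 868 in the controls, and 1117 and 1282 in Ovol2 BT skin, both above the controls (log2 fold 0.53, SE 0.19, limma adjusted p = 0.906). Without Ovol2 BT replicate 1 the fold was 0.63. Its myeloid relative Nrros leaned the same way (log2 fold 0.39, SE 0.22), as did the sum of the myeloid markers given with Tgfb1, though not each marker. The part of that list here was not tested. The lower one was Dlx5, a homeobox gene that responds to BMPs. It read 1940 and 2082 in the controls, and 1401 and 1468 in Ovol2 BT skin, both below the controls (log2 fold -0.48, SE 0.16, limma adjusted p = 0.906). Other BMP targets went both ways, with Dlx3 at 0.33 (SE 0.18), Msx1 at 0.21 (SE 0.14), Msx2 at -0.18 (SE 0.15) and Id4 at -0.07 (SE 0.25) on the log2 scale.

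Next to Lrrc32, the largest positive folds in the wider list were those of the BMP binder Nbl1 (0.48, SE 0.25) and the TGF-beta target Ccn2 (0.43, SE 0.26), also known as connective tissue growth factor. Nbl1 was 0.20 without Ovol2 BT replicate 2 and 0.77 without Ovol2 BT replicate 1. The largest negative folds were those of Itgb8, an integrin subunit that activates latent TGF-beta (-0.94, SE 0.39), Zfyve16, an endosomal Smad partner (-0.85, SE 0.55), and Mstn, the muscle growth inhibitor myostatin (-0.60, SE 0.57). Itgb8 read 249 and 233 in the controls, and 188 and 72.2 in Ovol2 BT skin, both lower. The log2 fold of Itgb8 was -0.33 without Ovol2 BT replicate 2 and -1.54 without Ovol2 BT replicate 1. That of Zfyve16 was -0.0036 and -1.70 in the same fits. Mstn was high on control replicate 1 alone, at 457 against 119 to 165, and its sign turned without that array (0.30). On the other arrays it read 7.1 to 7.5 on the log2 scale, near the filter level.

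Besides Itgb8 and Zfyve16, the ubiquitin ligases Wwp1 and Trim33, which act on Smads, were over 2-fold lower on Ovol2 BT replicate 2 than the mean of the other arrays. Wwp1 was -1.15 and Trim33 -1.13 on the log2 scale. These 4 were 4.71% of the 85 genes, against 5.97% of all genes.

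**Figure D5:**
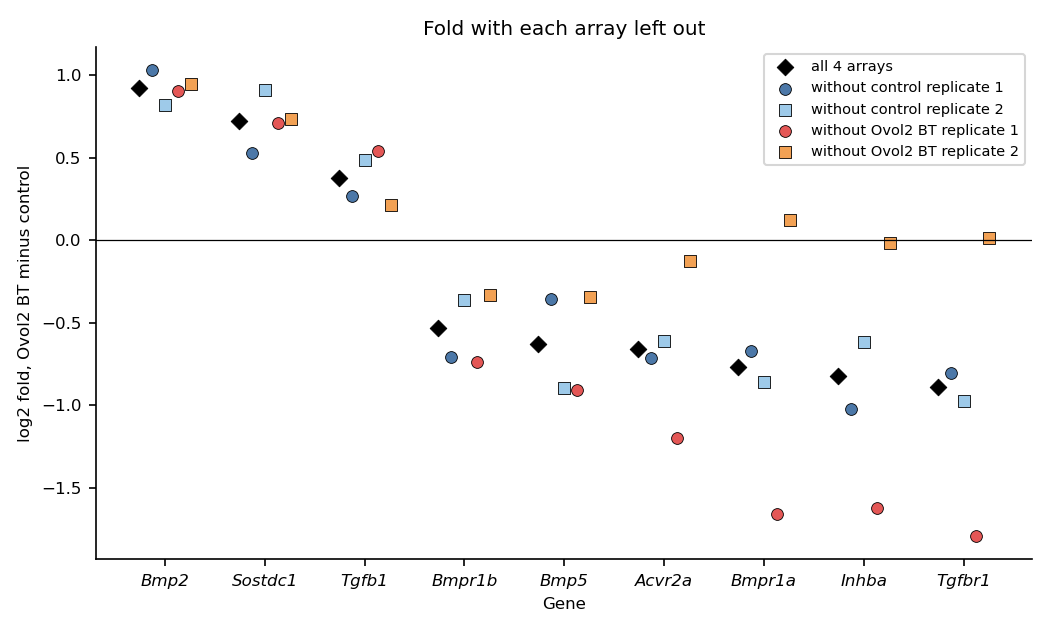
Log2 fold of 9 genes, Ovol2 BT minus control, with all 4 arrays (black diamonds) and with each array left out in turn. Bmp2 stays between 0.82 and 1.03 and Sostdc1 between 0.53 and 0.91, while Bmpr1a and Tgfbr1 move from -1.66 and -1.79 without Ovol2 BT replicate 1 to 0.13 and 0.012 without Ovol2 BT replicate 2.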

How the data were processed

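Linear intensity was deposited for every probe set on each array. Per the submitters' processing notes, the authors used Affymetrix Expression Console 1.1.1 and PLIER 2.0. How arrays were normalised to each other, and the build behind the probe sets, is not given in the sources used here. Of 35557 probe sets, 21789 had 1 gene symbol and were used, 1621 had several and 12147 had no listed gene. Symbols were updated through Entrez numbers to RefSeq GRCm38.p6 (21698 matched).

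Values were taken to log2(intensity + 16), the brightest probe set per gene was kept, and genes with a mean under the 25th percentile (7.32) were left out. limma 3.58.1 in R 4.3.3 fitted Ovol2 BT minus control with an intensity trend (2 residual and 3.45 prior degrees of freedom), two-sided, adjusted over all genes tested. The fit was also run on simulated data, with independent noise of the same spread on every array. That run did not cover an array unlike the rest. With arrays, precision is limited by their number. An offset shrinks folds of dim genes. The labels call the samples biological replicates.

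The members and lists were chosen with earlier results of these data known. Full values are given for members with a log2 fold of at least 0.5 or an unadjusted p under 0.05 and for a known gene of each role, and names from the wider list are those with an unadjusted p under 0.05 and the 3 largest folds in each direction; others named were chosen after their values were seen. Alternatives were other normalisations, offsets, filters, probe set summaries, variance models, the replicate number as a block, and each array left out.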

Additional observations from a re-analysis of the deposited data

How the results depend on the processing

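With every alternative that kept all 4 arrays, no pathway gene of either list changed. Signs were followed for the 38 genes and 7 named genes of the wider list, and those that turned were Smad7 (0.013 with quantile normalisation, 0.015 with median centring) and Acvr2b (0.0040 and 0.015). Over all genes, the 4 calls became 10 with median centring, 9 with the replicate block, and 0 with cyclic loess or without a variance trend, where Ovol2 had limma adjusted p-values of 0.0543 and 0.0590. The replicate numbers are not known to pair samples (deviations of same-numbered arrays correlated at -0.17 across genes). Same-numbered arrays do share the presence or absence of Y-linked signal, so the block is also a block for that. It called 0 of the 38 genes. A crossed pairing, chosen after seeing the data, called 5 of all genes and 0 of the 38, with 4 of the 38 at an unadjusted p under 0.05. The median fold of the 38 was 0.038 with median centring, -0.0042 with cyclic loess, and 0.035 when a filter at the 50th percentile left 30 of them. Leaving out 1 array at a time gave 4 to 2453 calls over all genes, 0 to 11 of the 38, 0 to 13 of the wider list, 2 to 14 of the 38 at an unadjusted p under 0.05, and a median fold of -0.032 to 0.042; the highest counts came without Ovol2 BT replicate 1.

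The following folds took both signs when 1 array was left out. Among ligands and carriers, Bmp7 ranged from -0.016 to 0.16, Gdf10 from -0.017 to 0.52 and Inhbb from -0.0009 to 0.42. Tgfb3 ranged from -0.33 to 0.080, Ltbp1 from -0.041 to 0.34 and Mstn from -1.51 to 0.30. Among receptors, Bmpr1a ranged from -1.66 to 0.13, Bmpr2 from -0.59 to 0.17, Tgfbr1 from -1.79 to 0.012, Tgfbr2 from -0.019 to 0.12, Tgfbr3 from -0.10 to 0.21, Acvr1 from -0.023 to 0.18 and Acvr2b from -0.11 to 0.074. Fst ranged from -0.12 to 0.25. Among Smads, Smad1 ranged from -0.12 to 0.053, Smad2 from -0.22 to 0.10 and Smad3 from -0.36 to 0.019. Smad4 ranged from -0.12 to 0.0021 and Smad7 from -0.19 to 0.15. Among targets, Id1 ranged from -0.28 to 0.37, Id2 from -0.037 to 0.095, Id3 from -0.66 to 0.38 and Tgfbi from -0.13 to 0.26. The cause was not tested.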
